A study of Homo sapiens with 4 samples.

Results

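The ZNF genes are the human genes whose symbol starts with ZNF and a number, the largest group of genes named for the zinc finger fold. In a list of 14149 RNA segments recovered in HuR immunoprecipitation experiments, called peaks below, 213 peaks lay in 89 ZNF genes, out of 3322 genes with any peak. Members were chosen by the gene of the transcript given in each peak's annotation. Within the list, neither a score nor the place of a peak within its gene entered that choice. Of the 89 genes, 82 code for proteins and 6 are long non-coding RNA genes named after a ZNF neighbour, such as ZNF236-DT, while ZNF217-AS1 had no entry in GENCODE release 44 under that name.

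RIP-seq was carried out in MDA-MB-231, an established human triple-negative breast cancer cell line, to find the transcripts that HuR holds. Complexes were pulled down from lysate with a mouse antibody to HuR in 2 samples and with mouse IgG, the control, in 2 samples, and the TruSeq libraries were made without selecting poly(A) RNA. All 4 samples came from the same line with no treatment given. The study's methods call the 2 samples of an antibody biological replicates. The deposited list holds 1 score per peak and nothing for each sample, so the difference between HuR and IgG, the spread between replicates and the depth of each library were not measured here. Each peak is 347 bp long, on hg38, and has a strand of its own.

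Most ZNF proteins are transcription factors of the C2H2 type, in which a pair of cysteines and a pair of histidines hold a zinc ion and each finger reads a few bases of DNA. In many of them a KRAB domain near the start of the protein recruits TRIM28 and, through it, enzymes that silence chromatin, and the fingers follow in a tandem array coded by a single long last exon. Many of these genes lie in clusters on chromosome 19 that grew by duplication, so neighbours can share much of their sequence. HuR, the product of ELAVL1, is known for binding AU-rich and U-rich stretches, above all in 3′-UTRs and introns.

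The sequences below were shown because they carry the 2 kinds of place where ZNF peaks stood in exons. The first set gives 30 bases from the highest-scoring 3′-UTR peak of 7 of the 8 ZNF genes that lead by such a peak, ZNF703 being left out, read from hg38 on the strand of the gene from 5′ to 3′. Capitals mark the pentamer ATTTA nearest the peak centre or, where the peak held none, its longest run of T.
ZNF22: tcatttcTTTTTTatgtgacatggagcaca
ZNF217: atttaaacctgtATTTAaaaaaaagaatca
ZNF280C: gggagctttggcTTTTgatcttaagcttat
ZNF507: agcagtaatgatATTTAaatattttgagtg
ZNF362: tttgaacctctctgttgagttttcTTTTTg
ZNF462: taaattaaagttATTTAaatggttggaata
ZNF561: atacataaccagTTTTatctctctcaagct
These sites lie at chr10:45004236-45004265 on the + strand for ZNF22, chr20:53567466-53567495 on the − strand for ZNF217, chrX:130204258-130204287 on the − strand for ZNF280C, chr19:32383258-32383287 on the + strand for ZNF507, chr1:33299279-33299308 on the + strand for ZNF362, chr9:107011198-107011227 on the + strand for ZNF462 and chr19:9608780-9608809 on the − strand for ZNF561. Of these 7 highest-scoring 3′-UTR peaks, those of ZNF217, ZNF507 and ZNF462 held ATTTA and those of ZNF22, ZNF280C, ZNF362 and ZNF561 did not. Lower 3′-UTR peaks of ZNF280C, with a score of 68.0, and of ZNF362, with 35.2, did hold it.

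The second set shows coding sequence of finger arrays under peaks, 129 bases each, from the 5 genes with the highest-scoring coding-exon peak that held more than 1 copy of the linker motif. This motif, spelled ACNGGNGANAANCC on the sense strand, is a DNA form of the short linker that joins neighbouring C2H2 fingers, and its copies are in capitals.
ZNF22: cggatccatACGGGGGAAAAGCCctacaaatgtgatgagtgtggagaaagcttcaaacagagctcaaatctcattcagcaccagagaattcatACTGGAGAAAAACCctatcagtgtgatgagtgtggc
ZNF468: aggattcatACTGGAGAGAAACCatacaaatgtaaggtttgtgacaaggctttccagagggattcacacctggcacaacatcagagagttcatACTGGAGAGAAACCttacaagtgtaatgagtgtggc
ZNF714: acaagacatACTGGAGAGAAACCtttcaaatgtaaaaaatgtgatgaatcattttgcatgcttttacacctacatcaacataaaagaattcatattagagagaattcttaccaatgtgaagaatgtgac
ZNF529: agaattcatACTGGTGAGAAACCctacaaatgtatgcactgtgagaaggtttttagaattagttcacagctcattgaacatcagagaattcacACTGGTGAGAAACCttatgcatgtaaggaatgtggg
ZNF543: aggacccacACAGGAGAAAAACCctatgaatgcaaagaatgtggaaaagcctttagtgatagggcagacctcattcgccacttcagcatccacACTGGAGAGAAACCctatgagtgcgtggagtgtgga
They lie at chr10:45003675-45003803 on the + strand for ZNF22, chr19:52840875-52841003 on the − strand for ZNF468, chr19:21117073-21117201 on the + strand for ZNF714, chr19:36547442-36547570 on the − strand for ZNF529 and chr19:57328789-57328917 on the + strand for ZNF543, each in the last coding exon of its gene. In ZNF22, ZNF468, ZNF529 and ZNF543 a second copy of the motif follows within the stretch, and in ZNF714 the next copy lies beyond the bases shown.

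With length left aside and every listed peak counted, the protein-coding ZNF genes were in the list about as often as protein-coding genes at large. A peak was found in 82 of 515 protein-coding ZNF genes, or 15.9% (Wilson 95% interval, 13.0 to 19.3), against 15.4% of all 19962 protein-coding genes and 2992 of 19447 others, or 15.4% (14.9 to 15.9). Shares were also taken by the structure of the gene. Among ZNF genes with at least 3 fingers, all of them in the last coding exon, 64 of 421 had a peak, or 15.2% (12.1 to 18.9). Where the fingers were spread over several exons, 15 of 55 had a peak, or 27.3% (17.3 to 40.2), and the intervals of these classes overlap. Of the genes with fewer than 3 fingers found by the pattern, 3 of 39 had a peak. On chromosome 19 the share was 34 of 249, or 13.7% (9.94 to 18.5), and on the other chromosomes 48 of 266, or 18.0% (13.9 to 23.1). All intervals on shares cover counting error only, and peaks of 1 gene are not independent of each other.

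Length moved with presence in the list. Canonical transcripts measured 4679 bases in the median over ZNF genes in the list and 3661 bases over the ZNF genes without a peak. Other genes showed the same order, with 4767 and 2545 bases. Among transcripts longer than 6000 bases, 28 of 109 ZNF genes had a peak, or 25.7% (18.4 to 34.6), against 1002 of 2940 other genes, or 34.1% (32.4 to 35.8). Between 4000 and 6000 bases the shares were 20.3% (14.4 to 27.8) and 26.0% (24.6 to 27.5), and between 3000 and 4000 bases 12.7% (7.73 to 20.2) and 17.6%. Between 2000 and 3000 bases they were 8.70% (4.79 to 15.3) and 10.2%, and up to 2000 bases 4.65% (1.28 to 15.5) and 3.10%. In every band the ZNF interval covers the share of the other genes, but above 2000 bases the ZNF share was the lower in each band. The bands together were not tested. The 3′-UTRs of ZNF genes had a median length of 2314 bases with a peak and 1534 bases without. Pooled over genes, they held 2.80 and 2.18 copies of ATTTA per kb. Other genes showed the same order, with 2504 and 811 bases and 2.79 and 2.04 copies per kb. How abundant each transcript was in these cells was not analysed here, and its part in which genes have a peak was not tested.

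ZNF peaks had low scores for this list. The score is the peak caller's own value, with no stated scale, and it is not an enrichment over IgG. The part of transcript abundance in the scores was not tested. Below 100 it moved in steps of 0.2447, which 98.3% of 11121 scores matched within rounding, against 39.3% from the rounding alone. Scores of ZNF peaks ran from 8.81 to 526.9 with a median of 18.4 and an upper quartile of 33.3, while peaks of other genes had a median of 34.7 and an upper quartile of 86.2. In steps, the medians were 75 and 142. The focus ratio, a fraction that describes how reads gather around the centre of a peak, had medians of 0.551 and 0.541. Of the ZNF peaks, 102, or 47.9%, were at or below the lower quartile of the whole list, 17.6, and 16, or 7.51%, were at or above its upper quartile, 83.4. A score over 100 was reached by 12 ZNF peaks, or 5.63%, against 21.9% of the peaks of other genes. Taking the best peak of each gene, the median was 17.6 over 89 ZNF genes and 34.7 over 3233 other genes. Without ZNF280C, which alone gave 29 peaks, the median over ZNF peaks was 16.2.

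**Figure D1:**
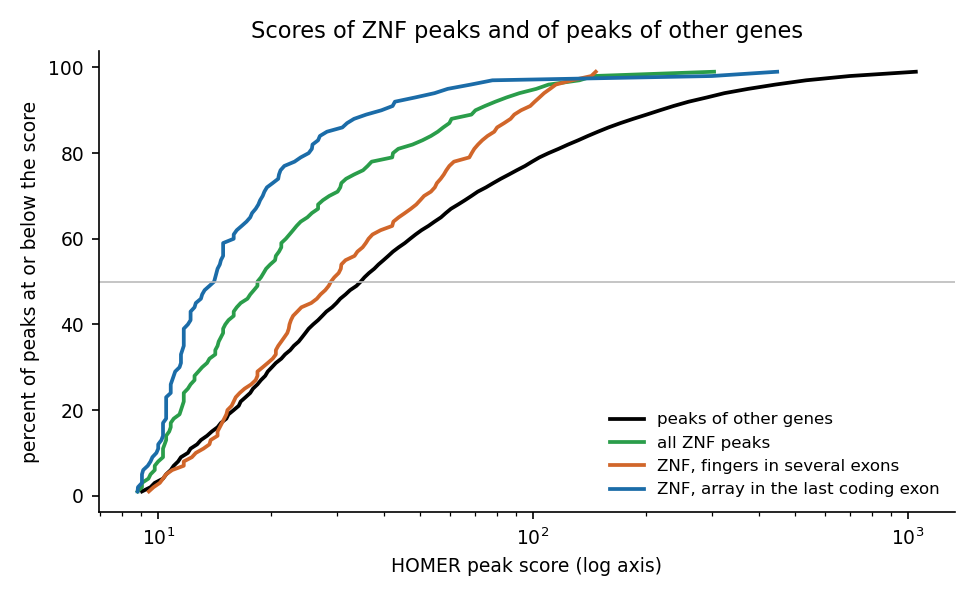
Percent of peaks (vertical axis) at or below each HOMER peak score (horizontal log axis), drawn from the 1st to the 99th percentile, for all ZNF peaks, the ZNF peaks of each main gene structure, and the peaks of other genes. The grey line marks the median, which is 14.1 for ZNF genes with the array in the last coding exon, 28.9 for those with fingers in several exons, 18.4 for all ZNF peaks and 34.7 for other genes.

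Low scores were most frequent where the whole array was in the last coding exon. The 106 peaks of these 64 genes had a median score of 14.1, and 70 of them, or 66.0%, were at or below the list's lower quartile. The 87 peaks of the 15 genes with fingers in several exons had a median of 28.9 and 23 of them, or 26.4%, did so. ZNF280C held 29 of those 87 peaks, with a median score of 54.8, so this gene raised the median of its class. The peaks of the class were not summarised without ZNF280C. With the best peak of each gene taken instead, the median was 34.0 over the 15 genes and 14.7 over the 64 genes. How far the number of peaks per gene sets the best score was not tested. On chromosome 19 the 71 ZNF peaks had a median of 14.7 and a highest score of 79.3, and none reached the list's upper quartile. The 142 ZNF peaks elsewhere had a median of 21.0.

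**Figure D2:**
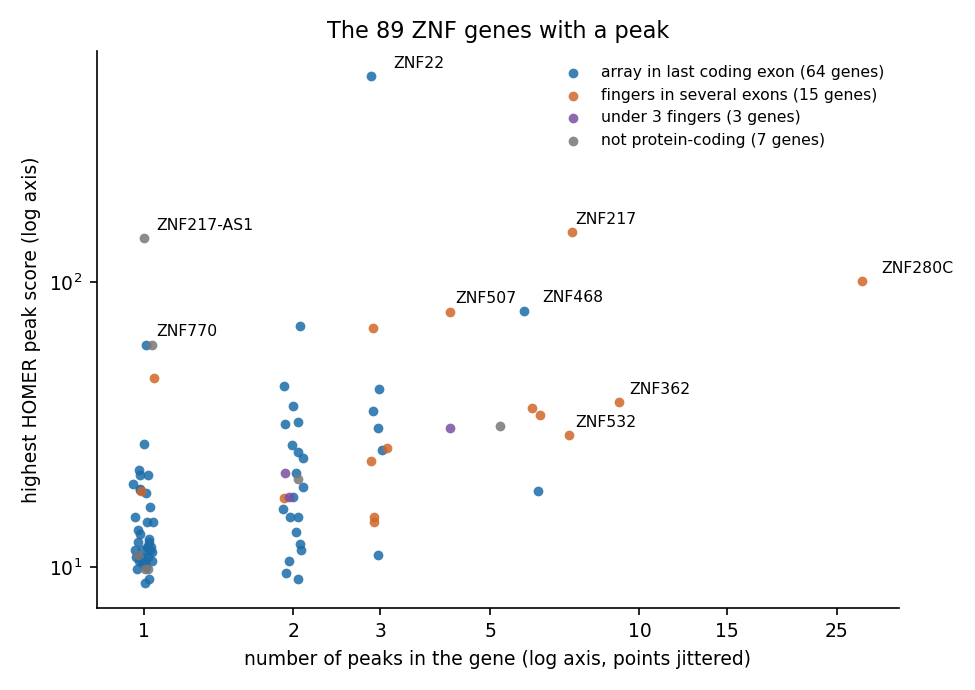
Number of peaks (horizontal log axis, points moved slightly sideways) and highest HOMER peak score (vertical log axis) of each of the 89 ZNF genes, coloured by gene structure. Of these genes, 43 had 1 peak and 24 had 2, only 4 exceeded a score of 100, and ZNF22 by score and ZNF280C by number of peaks stand away from the rest.

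ZNF22, a short protein with 5 C2H2 fingers, had the highest scores of the family. Its 3 peaks had scores of 526.9, 454.9 and 324.7, and on its best peak it ranked 120 among the 3322 genes. The exact Poisson 95% interval on the steps of the best peak was 505 to 550 in score. This interval takes each step as an independent read, which the sources do not state. The next ZNF gene, ZNF217, had a best score of 149.0. The peaks of 454.9 and 526.9 lay in exon 2 of 2, which codes for the 224 residues of the protein, with centres at residue 102 in finger 2 and residue 156 in finger 4. The peak of 324.7 followed in the 3′-UTR of the same exon. At most 1.57% of the 30-base words in these windows occurred in another ZNF gene. The list's own gene column names all 3 after ZNF22-AS1, the antisense gene. The peak at the lowest coordinate and the 3′-UTR peak were on the − strand and the peak of 526.9 on the + strand, which is the strand of ZNF22.

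ZNF217, an oncogene of chromosome 20 that is amplified in breast tumours, came second with 7 peaks that were all over 100. In coding exon 2 the scores were 149.0 and 107.2, with centres at residues 151 and 115 of 1048. In coding exon 4 there was a peak of 146.1 at residue 775. The 3′-UTR in exon 6 held peaks of 141.9, 116.7 and 113.1, and an intronic peak of 104.5 lay next to it. None of the 3 coding centres fell on a finger codon. With each step again taken as a read, the Poisson interval of the highest score was 137 to 161. That interval overlaps those of the peaks of 146.1 and 141.9. It lies above those of the other 4, of which the highest is 106 to 128. ZNF217-AS1 entered by name with 1 peak of 141.9 at chr20:53575936-53576282, a window that overlaps an exon of ZNF217 itself.

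ZNF280C, a C2H2 protein that has been linked to the repair of DNA breaks, had 29 peaks, more than any other ZNF gene and the seventh highest number among all genes. Scores ran from 13.7 to 100.3 with a median of 54.8. The gene lies at chrX:130202707-130268899 on the − strand and has 19 exons. The peaks merged into 19 loci, of which 10 held a peak on each strand. By the deposited annotation 22 peaks were intronic, 4 belonged to the 3′-UTR and 3 were exonic.

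The intronic peaks of ZNF280C stayed close to exons. Their centres lay 9 to 268 bp from the nearest exon, with a median of 93.5 bp, which is less than the length of a peak. When each peak was placed by its 5′ edge on its own strand instead of its centre, 19 of the 29 fell in an exon of the canonical transcript, 14 of them in coding sequence, and 12 different exons were reached. The best score, 100.3, was in exon 14 at residue 613, and the neighbouring intronic peak on the other strand had 97.6. The 4 peaks of the 3′-UTR in exon 19 had scores of 89.8, 88.3, 84.4 and 68.0. The lowest scores, 13.7 and 18.4, were in introns 1 and 16 of the annotated transcript.

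**Figure D3:**
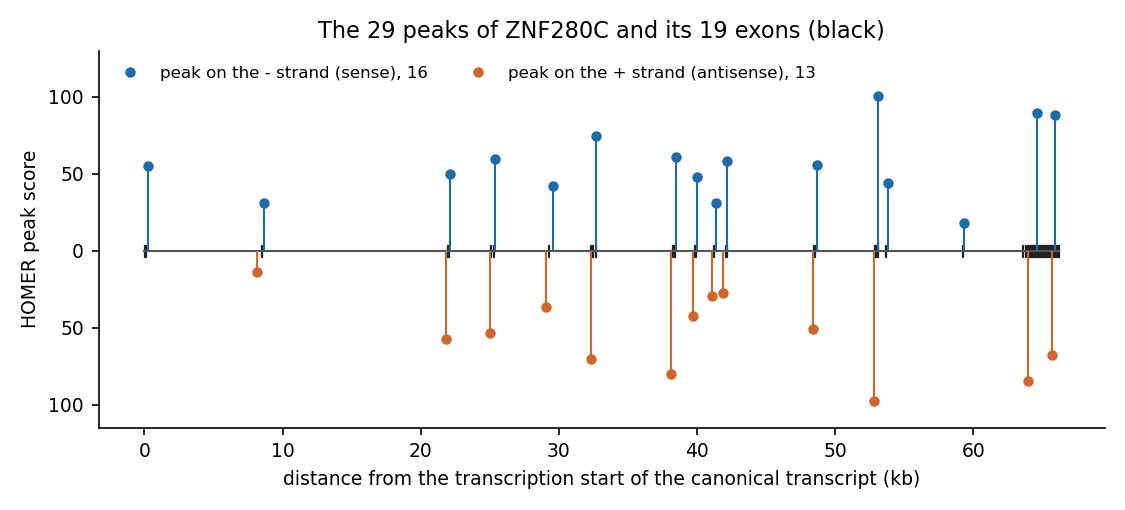
HOMER peak score (vertical axis, upward for the 16 sense peaks and downward for the 13 antisense peaks) along ZNF280C, by distance from the transcription start in kb, with exons as black boxes. Of the 19 loci 10 hold a peak on each strand, peaks occur from the first intron to the 3′-UTR, and scores range from 13.7 to 100.3.

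Other leading genes had 1 to 9 peaks and lower scores. ZNF468, a gene of the chromosome 19 clusters, had 6 peaks with a best score of 79.3 over its finger array at residue 440, a second coding peak of 56.0 in finger 4 and a peak of 51.4 that the deposited annotation places in a non-coding exon and the canonical transcript in the 3′-UTR. Much of that sequence is not its own: 48.7%, 44.7% and 55.3% of the 30-base words of these 3 windows also occur in other ZNF genes, above all ZNF28, so the authors' read placement could split or move their reads. ZNF507 had 4 peaks, with 78.6 in coding exon 3 within finger 5 and 72.4 in the 3′-UTR, and none of its words in these windows was found in another ZNF gene. ZNF460 had 70.2 and 42.3 on the 2 sides of its exon 2, in windows with 12.6% and 23.9% of words in other ZNF genes. ZNF652, a transcriptional repressor, had 68.8 in coding exon 2 beside 22.3 and 20.6 in introns. ZNF770 had a single peak of 60.2 in its first intron, whose 5′ edge fell in the 5′-UTR.

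Promoters and antisense genes gave part of the leading scores. ZNF460-AS1, a non-coding gene, had a peak of 60.2 annotated as promoter, in a window that lies within ZNF460. ZNF236 had 1 peak of 46.0 that lay outside its transcript, upstream of the start and within the divergent gene ZNF236-DT. Under its own name ZNF236-DT had 5 intronic peaks with a best score of 31.1. ZNF320 closed the 12 highest with 43.1 at residue 99 of its last coding exon, before the first finger, and 10.0 in an intron. In these windows 28.6% and 49.7% of the 30-base words also occur in other ZNF genes.

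Genes with many peaks and moderate scores mostly had fingers spread over several exons. ZNF362 had 9 peaks from 15.2 to 37.9, and its 2 highest, 37.9 and 35.2, were in the 3′-UTR. ZNF532 had 7 peaks from 10.3 to 28.9, the highest in coding exon 3. ZNF451, which acts as a SUMO ligase, had 6 peaks with scores from 9.54 upward, the highest within finger 5 in coding exon 10. ZNF462, a protein of 2506 residues with 33 fingers, had 6 peaks from 13.7 to 34.0, with 34.0, 33.3 and 28.4 all in the 3′-UTR. ZNF738 and ZNF468, with 6 peaks each, instead have the array in the last coding exon, and the peaks of ZNF738 scored only 9.54 to 18.4. ZNF703, an oncogene of luminal breast cancer without a classic finger array, had 4 peaks between 19.3 and 30.6, of which the peaks of 30.6 and 24.0 were in the 3′-UTR.

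Peaks of ZNF genes lay in exons more often and in introns less often than peaks of other genes when each was placed at its centre. By the deposited annotation 64 of 213, or 30% (24.3 to 36.5), were in exons, against 12.5% for other genes. Introns held 98 ZNF peaks, or 46.0% (39.4 to 52.7), against 63.1%. The share in 3′-UTRs was 14.6% for ZNF peaks (31 peaks in 19 genes) and 14.8% for others. On the canonical GENCODE transcript 64 ZNF peaks, or 30%, were again in coding exons, against 12.7%.

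This contrast changed with the position used. By the 5′ edge of each peak on its own strand, coding exons held 103 ZNF peaks, or 48.4% (41.7 to 55.0), and 52.7% of the peaks of other genes, so the order turned and the ZNF interval covers the value of the others. The exons under ZNF coding centres had a median length of 3066 bases, and those under other coding centres 705 bases. Of the ZNF coding centres 55 of 64, or 85.9%, were coding at the 5′ edge too, against 59.3% for other genes. In genes with the array in the last coding exon the figures were 3934 bases and 41 of 44. How far exon length sets the share at the centre was not tested.

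**Figure D4:**
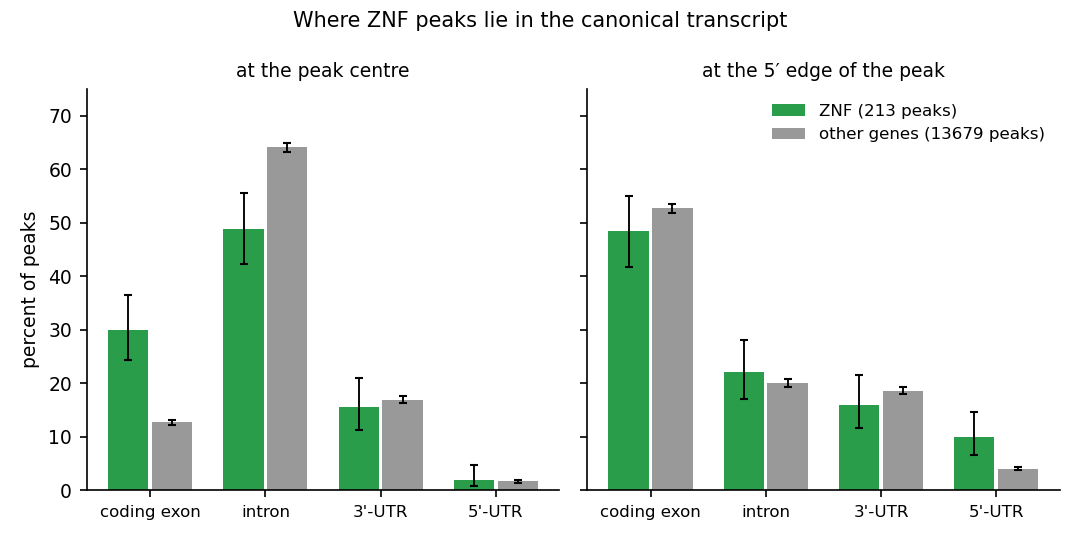
Percent of peaks (vertical axis, bars from 0 with Wilson 95% intervals) in coding exons, introns, 3′-UTRs and 5′-UTRs of the canonical transcript, for 213 ZNF peaks and 13679 peaks of other genes, at the peak centre (left) and at its 5′ edge on its own strand (right). The coding-exon share of ZNF peaks is 30% against 12.7% on the left and 48.4% against 52.7% on the right.

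The last coding exon held 46 of the 64 ZNF coding centres, or 71.9% (59.9 to 81.4), against 33.9% for other genes. At the 5′ edge the shares were 47 of 103, or 45.6% (36.3 to 55.2), and 6.33%, and the ZNF share was the higher at both positions. The 5′-UTR held 21 ZNF positions by the 5′ edge, or 9.86% (6.54 to 14.6), against 3.99%. They came from 20 genes, and 14 of the 21 were in exon 1. Of intronic centres of ZNF genes with the array in the last coding exon, 13 of 43, or 30.2%, moved to the 5′-UTR in this way, against 3.75% in other genes.

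Intronic ZNF peaks were mostly at exon edges, with a few deep in introns. Of 104 intronic centres on the canonical transcript, 87, or 83.7% (75.4 to 89.5), lay within 347 bp of an exon, against 96.5% for other genes. More than 1000 bp from any exon were 15 ZNF centres, or 14.4% (8.94 to 22.4), against 2.85%. These came from 8 genes, led by ZNF738 with 4 and ZNF236-DT with 3, and their median score was 15.4. The 4 of ZNF738 were exonic in the deposited annotation, on a transcript that is not the canonical one. Repeats annotated at the centre were found for 18 ZNF peaks, or 8.45%, and 7.66% of the others. Among the 15 ZNF centres more than 1000 bp from an exon, 6 were in such a repeat. That count was not taken for other genes.

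Of the 3 main places within ZNF genes, 3′-UTRs had the highest median score and introns the lowest. The median was 21.0 in exons, 24.0 in 3′-UTRs and 16.2 in introns. In the same order, genes with fingers in several exons, ZNF280C included, had 32.5, 37.9 and 21.8. Genes with the array in the last coding exon had 16.2, 13.4 and 12.8. In other genes the same 3 medians were 45.8, 66.8 and 28.9, so each was lower in ZNF genes, and the gap was widest in 3′-UTRs. By the deposited annotation, the 3′-UTR scores ran from 10.5 in ZNF70 to 324.7 in ZNF22. Below ZNF22, ZNF217 and ZNF280C came ZNF507 with 72.4, ZNF362 with 37.9, ZNF462 with 34.0, ZNF703 with 30.6 and ZNF561 with 24.0. ZNF561 had no peak elsewhere, since its 2 peaks of 24.0 and 23.2 were both in the 3′-UTR.

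The finger array took up much of the coding sequence under the peaks. A finger was found by its pattern of cysteines and histidines in 500 of the 515 protein-coding ZNF genes, with a median of 11 fingers and at most 36. Of 64 coding centres, 25, or 39.1% (28.1 to 51.3), fell on a finger codon, and fingers made up on average 36.1% of those proteins. Between the first and the last finger lay 40, or 62.5% (50.3 to 73.3), where that span averaged 56.9% of the protein. In the array genes 22 of 44 centres were on a finger codon, with fingers at 43.9% of the protein. These shares lie near the space that fingers occupy. By the 5′ edge the array genes had 18 of 56 on a finger codon, or 32.1% (21.4 to 45.2), with fingers at 42.7%, so the order turned. Over all ZNF genes it was 33 of 103, or 32.0% (23.8 to 41.6), with fingers at 31.8%. Both intervals cover the part taken by fingers. Along these 44 centres, 11 came before the first finger, 30 between the first and the last and 3 after the last.

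**Figure D5:**
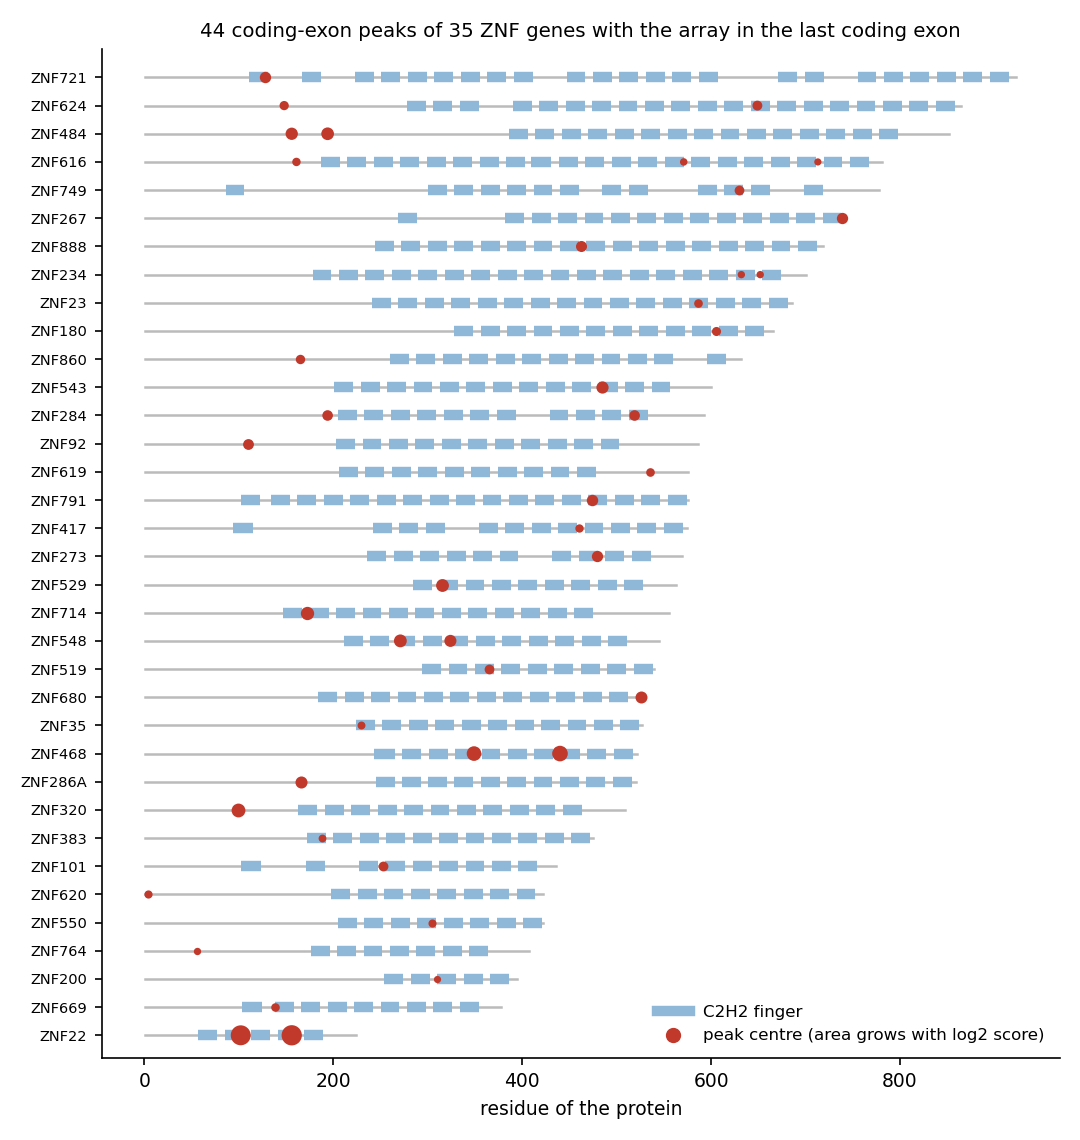
Residue of the protein (horizontal axis) at the centres of 44 coding-exon peaks, drawn as red points whose area grows with the log2 score, in 35 ZNF genes with the array in the last coding exon, ordered by protein length. Blue boxes are C2H2 fingers found by pattern, and the points spread over the arrays with 30 of 44 between the first and the last finger.

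The linker motif of the sequences above was common under ZNF peaks. It occurred on the sense strand in 31 of 212 windows, or 14.6%, in 26 genes, and in 27 of 64 peaks annotated as exonic, or 42.2% (30.9 to 54.4). Of the exonic peaks of other genes 1 of 1696 held it. Over all 13544 windows of other genes it was found in 5, in GLI3, itself a C2H2 factor, SIPA1L3, SLC6A6 and SNRNP40. A window held up to 4 copies, and 23 windows held more than 1. Neighbouring copies were 84 bases apart in 35 of 41 pairs, which is 28 codons or 1 finger with its linker, and 168 bases in 5. A match describes the coding sequence and not a site of HuR.

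The pentamer ATTTA was less frequent under ZNF peaks when all places were pooled, but not beyond counting error within any of the 3 main places. ATTTA was found on the sense strand in 86 of 212 windows, or 40.6% (34.2 to 47.3), against 50.6% (49.8 to 51.5). In 3′-UTR peaks it was present in 15 of 31, or 48.4% (32.0 to 65.2), against 52.7%, in exonic peaks in 32.8% (22.6 to 45.0) against 35.7%, and in intronic peaks in 46.9% (37.4 to 56.7) against 55.6%, and each ZNF interval covers the other value. A run of 5 T was held by 58.5% of ZNF windows and 68.7% of the others. In 3′-UTR peaks that run was held by 80.6% and 78.4%. The mean GC content of the windows was 43.3% and 41.5%. The ZNF exonic windows, with 43.8% GC, held the run in 32.8%, against 48.6% in other exonic windows at 46.9% GC.

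Sequence shared with other ZNF genes limits which gene a peak belongs to. In 44 of the 213 windows, or 20.7%, at least 10% of the 30-base words occurred in another ZNF gene, and 97 windows had no word anywhere else in the genome. At least 10% was shared with another ZNF gene in 36 of 106 windows of array genes, or 34.0%, and in 3 of 33 3′-UTR peaks. The highest shares with other ZNF genes were in ZNF286A, with 90.6% and 77.0% shared with ZNF286B, ZNF417 with 68.6% shared mainly with ZNF587, and ZNF888 with 60.4% shared mainly with ZNF701. Counting any other place in the genome, 63 windows reached 10%, among them the ZNF322 peak with 81.1% and a ZNF532 peak with 82.1%. How reads with several places were treated is not stated. With only peaks under 10% shared with another ZNF gene, 73 genes and a median score of 18.1 were left.

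Chromosome 19 held 71 ZNF peaks in 37 genes, or 33.3% of all ZNF peaks, and 249 of the 515 protein-coding ZNF genes. Grouping these genes where gaps stayed under 1 Mb, the block at chr19:56661980-58431736 had the most members, 12 genes with 19 peaks and a best score of 70.2 in ZNF460. The block at chr19:52113091-52923470 had 7 genes with 17 peaks, led by ZNF468 with 79.3 and holding also ZNF320, ZNF611, ZNF616, ZNF701, ZNF766 and ZNF888. Chromosome X followed with 30 peaks, of which 29 were in ZNF280C, and chromosome 18 with 18 peaks in 6 genes.

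Gene names in the list need care in this family. For 69 of 213 ZNF peaks, or 32.4% (26.5 to 38.9), the gene column named a gene other than that of the annotated transcript, against 41.1% of other peaks. Another ZNF gene was named for 33 of them. The largest single case was ZNF280C, of whose peaks 9 are listed under RAB33A, the neighbour on chromosome X. In 3′-UTRs the share was 21 of 31, or 67.7% (50.1 to 81.4), an interval that covers the 58.7% of other genes, and in introns it was 17.3% (11.1 to 26.0) against 38.2%. In the other direction, 17 of the 194 peaks with a ZNF name in that column lay in another gene or in none, among them 4 in INSR listed as ZNF557.

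Peaks of both strands were found in ZNF loci as elsewhere. Overlapping ZNF peaks merged into 174 loci, of which 39, or 22.4% (16.9 to 29.2), held both strands, against 19.6% for other genes. The strand of the peak was that of the gene for 55.2% (48.5 to 61.7) of ZNF peaks and 53.2% of the others. The strand of a peak was thus not read as the strand of its RNA, and 15 ZNF windows also overlapped an exon of another gene, whose reads cannot be told apart here.

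Of the genes through which KRAB proteins silence chromatin, 6 of 15 had a peak, against 15.4% of all protein-coding genes of any length. No interval was taken on so few genes, and their transcript lengths were not compared. They held 18 peaks. Their best scores ran from 20.8 to 223.4 with a median of 70.7, where protein-coding genes outside the ZNF group had 35.2. HDAC2, a histone deacetylase, had the highest, with 4 intronic peaks from 133.4 to 223.4. CBX5, which codes for the heterochromatin protein HP1α, had 1 peak of 99.1, and ATF7IP, the partner of the methyltransferase SETDB1, had 8 with a best score of 94.7. PPHLN1 and TASOR, both subunits of the HUSH complex, had best scores of 46.7 and 20.8, and SMARCAD1, a chromatin remodeller, had 31.8. The other 9 genes had no peak in the list, namely TRIM28, the corepressor bound by KRAB, SETDB1, CBX1, CBX3, CHD3, CHD4, HDAC1, MPHOSPH8 and MORC2. A gene without a peak may still have been bound, since the authors kept only some of the peaks called.

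Other groups that share the zinc finger name differed in number. ZBTB genes gave 28 peaks in 12 genes with a median score of 31.0, led by ZBTB8OS with 235.7, a neighbour of ZBTB8 genes named for its position and not for a finger, and ZBTB18, a C2H2 repressor, with 160.8. ZFP genes gave 11 peaks in 3 genes, led by ZFP36L1 with 415.3, which is a CCCH protein that itself binds AU-rich RNA, and the readthrough gene ZFP91-CNTF with 188.2. ZKSCAN genes gave 3 peaks, with 23.7 in ZKSCAN3 and 13.2 in ZKSCAN2. Of the protein-coding genes of each group, 11 of 42 ZBTB, 3 of 22 ZFP, 2 of 8 ZKSCAN and 0 of 21 ZSCAN genes had a peak, and the Wilson interval for ZSCAN, 0% to 15.5%, covers the 15.4% of all protein-coding genes.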

How the data were processed

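RIP-seq was performed on 2 HuR and 2 IgG samples. Per the labels and methods, the authors aligned reads with STAR to hg38 and called peaks with HOMER. Versions, peak settings, pooling, the treatment of reads with several places and the selection threshold were not given in the sources used here. The methods name ANNOVAR, whereas the file header holds a HOMER annotation. The deposited score is HOMER's value per peak. The focus ratio is a fraction between 0 and 1 per the file headers, and the deposited distance to the nearest start is in bp. How reads were moved before peak calling affects every position, so places were also read at the 5′ edge of each peak on its own strand.

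Host genes came from RefSeq for 13835 peaks and from pairings within the list for 57, of which 8 are ZNF peaks, and 37 peaks with a transcript had no host. Regions, proteins and 30-base words came from hg38 with GENCODE release 44 (88 of 89 ZNF genes matched). Fingers were matched as C, 2 to 4 residues, C, 12 residues, H, 3 to 5 residues, H. Shares have Wilson 95% intervals and single scores exact Poisson intervals on steps, which assume that each step is an independent read. Both cover counting error only, since no molecular identifiers were used, and no test was run on members.

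Named genes were the 12 ZNF genes with the best peaks, the 8 with most peaks, the 8 with the best 3′-UTR peaks, and KRAB partners. Members and lists were chosen with earlier results of these data known. The planned test of HuR against IgG was not run because the list has no value per sample. Python 3.11.15, numpy 2.4.6, pandas 2.3.3, scipy 1.17.1, pysam 0.24.0 and matplotlib 3.10.9 were used, and functions were tested on simulated data.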

Additional observations from a re-analysis of the deposited data

How the results depend on the processing

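Of 37 alternatives to 9 results, 28 stayed within tolerance and 9 moved. The tolerance was 1.5 times the value for counts, and for shares and the median score the 95% interval of the value itself. With only peaks at or above the median score of the list, 53 ZNF peaks in 18 genes were left. Of the protein-coding ZNF genes 3.11% then had a peak, and the same share over all protein-coding genes was not computed. A best score above 30 was reached by 23 of 89 ZNF genes and 1781 of 3233 other genes. Of the 53 ZNF peaks 22.6% lay in 3′-UTRs, and the gene column named another gene for 45.3%. By the 5′ edge of each peak, 48.4% of ZNF peaks were in coding exons. The share of windows with the AU-rich motif was 8.49% for TATTTAT, 58.5% for a run of 5 T and 60.4% for ATTTA on both strands. The cause of these changes was not tested. Leaving out ZNF280C was chosen after seeing the data, and none of its 7 values moved beyond tolerance, with 184 peaks and a median score of 16.2. No paired analysis was possible because samples have no values of their own in the file, and for the same reason no replicate could be left out. The depth of the libraries is unknown.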
